A study of Mus musculus with 2 samples.

Results

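Genes that coat lipid droplets, break down the stored triacylglycerol or carry out the last step of its synthesis were described in the hearts of aged male mice. They were 10 genes chosen by symbol, of 55536 annotated genes in the deposited gene tables, and all 10 symbols matched 1 gene identifier each. The coat genes were Plin2, Plin3, Plin4 and Plin5, the lipolysis genes Pnpla2, Abhd5, G0s2 and Lipe, and the synthesis genes Dgat1 and Dgat2.

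The mice were male B6CASTF1/J, the hybrid offspring of the C57BL/6J and CAST/EiJ inbred strains, aged 18 to 20 months. The study profiled total RNA of heart tissue in 2 libraries, biological replicates 2 and 1, each made from 300 ng of RNA depleted of ribosomal RNA, with ERCC spike-ins added. Both libraries belong to 1 group with no treatment or mutant allele, so no conditions could be compared, and ratios are given as replicate 2 over replicate 1. The libraries have separate sample identifiers and a shared donor identifier, so a p-value measures only how these samples differ, which may be technical, and CAST/EiJ alleles were quantified against the reference annotation.

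The gene tables held 37281459 expected counts of annotated genes in replicate 2 and 38858481 in replicate 1. The mitochondrial chromosome took 34.4% of the counts in replicate 2 and 29.3% in replicate 1. All 6 cardiomyocyte markers of the list (Myh6, Actc1, Tnnt2, Ryr2, Actn2 and Pln) were detected, and they summed to 18271 TPM in replicate 2 and 21727 TPM in replicate 1. TPM, a share of all transcripts after division by length, is the scale of every level below, and its sum includes mitochondrial RNA. In bulk tissue, fewer cells of a type and less RNA per cell cannot be told apart. Myh2 and Myh4, fast skeletal muscle myosins, had 0 expected counts in the gene tables of both libraries, which allows up to 3 counts. Myh1, of the same marker list, had 0 expected counts in replicate 2 and 1.01 in replicate 1. In a separate deposited quantification these genes were not all at 0, with Myh1 highest at 0.178 TPM in replicate 2 and 0.358 TPM in replicate 1.

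Heart muscle draws most of its energy from fatty acids and keeps a small, quickly exchanged store of them as triacylglycerol in lipid droplets. Perilipins coat the droplet surface and govern the access of lipases. Pnpla2 (adipose triglyceride lipase) starts lipolysis with Abhd5 as its activator and G0s2 as its inhibitor, Lipe (hormone-sensitive lipase) goes on to diacylglycerol, and Dgat1 and Dgat2 join the last fatty acid to diacylglycerol when the store is filled.

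All 10 genes were expressed above 1 TPM in both libraries, and their mean levels spanned 7.75 to 149 TPM. By TPM summed over all annotated transcripts of a gene, Pnpla2 and Dgat2, an enzyme of breakdown and an enzyme of synthesis, led the group. The perilipins followed, and Abhd5, G0s2, Lipe and Dgat1 were lower. The 10 genes summed to 554 TPM in replicate 2 and 603 TPM in replicate 1, or 0.155% of the TPM of nuclear protein-coding genes in replicate 2 and 0.146% in replicate 1. TPM was lower in replicate 2 for 9 of the 10, the exception being G0s2. The share of all genes lower in TPM was not computed, so this count is not read as a trait of the members. With counts scaled to their totals, the median log2 ratio of all tested genes was -0.10. Plin3 and Plin4, lower in TPM, were higher in replicate 2 by the TMM-scaled counts given below. The expected counts of 9 of the 10 were whole numbers in both libraries within 0.005, as they are where reads are not divided between genes. Plin2 was the exception, at 1799.83 expected counts in replicate 2 and 1969.84 in replicate 1. The libraries are stranded, but whether the counting used strand is not given in the sources used here. Reads of Plin4 and Hdgfl2, and of G0s2 and Lamb3, which overlap on opposite strands, could therefore not be told apart with certainty. Hdgfl2 was at 10.8 TPM in replicate 2 and 12.3 TPM in replicate 1, and Lamb3 at 2.8 TPM in replicate 2 and 3.42 TPM in replicate 1, each below the overlapping member.

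**Figure D1:**
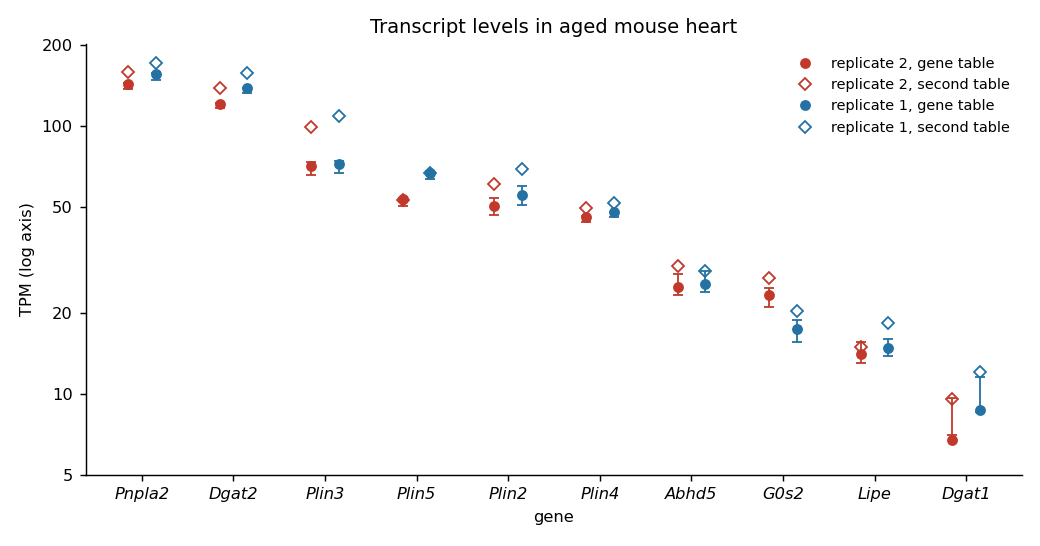
TPM of each of the 10 genes in replicate 2 and replicate 1, on a log axis, in order of mean level. Points are the deposited TPM and bars the deposited credible interval, which belongs to a separate posterior estimate. Pnpla2 and Dgat2 stand above 100 TPM in both libraries, and Dgat1 lies lowest, at or below its bar.

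Among the coat genes, Plin3, which moves between cytosol and droplet, was at 70.9 TPM in replicate 2 and 71.9 TPM in replicate 1, a mean of 71.4 ± 0.658 TPM (SD, n = 2). Its deposited credible intervals were 65.6 to 73.4 TPM in replicate 2 and 66.5 to 74.3 TPM in replicate 1. The libraries therefore overlapped in their intervals for Plin3.

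Plin5, the perilipin of oxidative tissues that binds Pnpla2 and Abhd5 and links droplets to mitochondria, was at 53.3 TPM in replicate 2 and 67 TPM in replicate 1. Its credible intervals, 50.3 to 54 TPM in replicate 2 and 63.6 to 67.7 TPM in replicate 1, did not overlap. Its mean of 60.1 ± 9.72 TPM (SD, n = 2) placed it at rank 894 of 22015 nuclear protein-coding genes. Such a gap was not particular to Plin5, since the intervals of Pnpla2, Dgat2 and G0s2 did not overlap between the libraries either. By TMM-scaled counts, Pnpla2 had a log2 ratio of only -0.01 and Dgat2 one of -0.06.

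Plin2, the coat protein found on droplets of most cell types, was at 50.3 TPM in replicate 2 and 55.4 TPM in replicate 1, with a mean of 52.9 ± 3.62 TPM (SD, n = 2). Plin4, the largest perilipin and one with a long repeat region, was at 45.9 TPM in replicate 2 and 47.7 TPM in replicate 1, with a mean of 46.8 ± 1.25 TPM (SD, n = 2). Plin5 and Plin2 were the only neighbours in the order of levels whose values overlapped between libraries. In the second quantification, a separate deposited transcript table summed per gene, Plin2 stood above Plin5 in both libraries, at 60.9 against 53.1 TPM in replicate 2 and 68.9 against 66.8 TPM in replicate 1. By TPM summed over all annotated transcripts, the order of these 2 coat genes thus depended on the quantification. Their leading transcripts kept 1 order, with Plin5-201 above Plin2-201 in both libraries and quantifications. In the first, Plin5-201 was at 33.8 TPM in replicate 2 and 46.6 TPM in replicate 1. Plin2-201 was at 25.2 TPM in replicate 2 and 27.3 TPM in replicate 1.

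Within the summed TPM of the 4 coat genes, no gene held a majority. Plin3 made up 32.2% in replicate 2 and 29.7% in replicate 1, and Plin5 24.2% in replicate 2 and 27.7% in replicate 1. Plin2 made up 22.8% in replicate 2 and 22.9% in replicate 1, and Plin4 20.8% in replicate 2 and 19.7% in replicate 1. In the second quantification Plin3 held more, 37.7% in replicate 2 and 36.8% in replicate 1, and Plin5 less, 20.2% in replicate 2 and 22.5% in replicate 1. The libraries differed most in the share of Plin5, and the quantifications in that of Plin3.

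**Figure D2:**
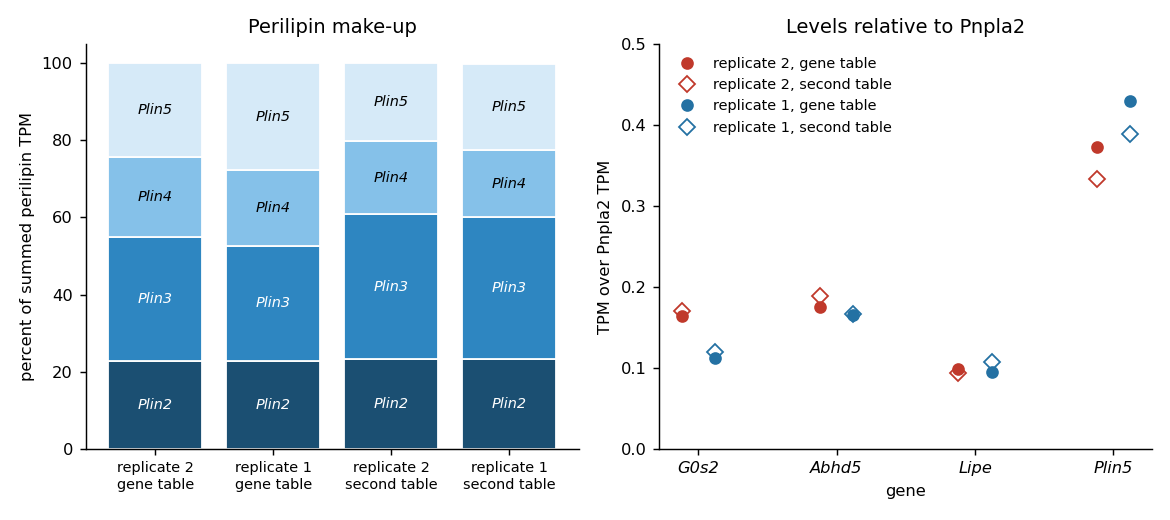
Share of the summed TPM of Plin2, Plin3, Plin4 and Plin5 held by each, in percent, for replicate 2 and replicate 1 in the gene table and the second table (left), and TPM of G0s2, Abhd5, Lipe and Plin5 over that of Pnpla2 (right, filled for the gene table and open for the second). Plin3 has the largest share in all 4 bars, and G0s2 over Pnpla2 is higher and Plin5 over Pnpla2 lower in replicate 2 than in replicate 1 in both tables.

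The promoters of Plin2, Plin5 and G0s2 are shown because the order of Plin2 and Plin5 differed between the quantifications, while Plin5 and G0s2 were the members farthest apart between libraries. The bases are from RefSeq on GRCm38.p6, the assembly called mm10, and the table held 8 of the 10 genes. Dgat1 and Dgat2 are named only. Each window runs 5′ to 3′ on the strand of the gene, starts at most 250 bases upstream of a RefSeq start and leaves out bases of the gene's own exons. Capitals mark AGGTCA (the nuclear receptor half-site), CCAAT (the CCAAT box) or GGGCGG (the GC box) on either strand, so that TGACCT and ATTGG are matches on the opposite strand. The windows lie at chr4:86670061-86670309 for Plin2, chr17:56117597-56117798 for the upstream start of Plin5, chr17:56117299-56117501 for its downstream start, and chr1:193273218-193273438 for G0s2, all on the minus strand.
Plin2: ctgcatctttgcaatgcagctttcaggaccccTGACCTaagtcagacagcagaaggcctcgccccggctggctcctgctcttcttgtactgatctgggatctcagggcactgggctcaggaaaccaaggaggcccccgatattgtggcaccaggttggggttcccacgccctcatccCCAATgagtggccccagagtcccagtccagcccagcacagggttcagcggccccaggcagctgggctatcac
Plin5 upstream start: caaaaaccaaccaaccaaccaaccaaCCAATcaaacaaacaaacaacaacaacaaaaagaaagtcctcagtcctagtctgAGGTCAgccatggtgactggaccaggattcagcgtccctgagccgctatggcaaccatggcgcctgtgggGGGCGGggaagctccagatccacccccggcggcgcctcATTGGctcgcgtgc
Plin5 downstream start: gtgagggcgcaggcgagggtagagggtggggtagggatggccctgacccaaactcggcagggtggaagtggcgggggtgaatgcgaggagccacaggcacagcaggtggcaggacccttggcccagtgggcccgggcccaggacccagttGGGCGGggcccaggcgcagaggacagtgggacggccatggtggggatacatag
G0s2: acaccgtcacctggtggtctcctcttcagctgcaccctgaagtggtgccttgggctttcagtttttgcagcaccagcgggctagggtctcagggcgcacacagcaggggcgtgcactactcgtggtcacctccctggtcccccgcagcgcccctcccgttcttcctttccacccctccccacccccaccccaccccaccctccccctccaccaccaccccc
The Plin2 window held 1 AGGTCA and 1 CCAAT, and the upstream Plin5 window held 1 AGGTCA, 2 CCAAT and 1 GGGCGG. The downstream Plin5 window held 1 GGGCGG and the G0s2 window none of these letters. No matches overlapped in these 4 windows. Of 32851 RefSeq promoter windows of a full 250 bases, 14% held AGGTCA, 33.8% CCAAT and 32.7% GGGCGG. The members' windows are shorter where exon bases were left out, so the shares are not like for like. The direct repeat of AGGTCA with a single spacer base of any kind, the form bound by PPAR with RXR, was in none of the members' windows and in 0.0335% of all windows. Abhd5, the activator of Pnpla2, was the other member with an AGGTCA. A match describes the letters only.

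Summed over its annotated transcripts, Pnpla2 had the highest level of the 10 genes. It was at 143 TPM in replicate 2 and 156 TPM in replicate 1, with a mean of 149 ± 9.22 TPM (SD, n = 2) and rank 383. Its activator Abhd5 was at 25 TPM in replicate 2 and 25.7 TPM in replicate 1, with a mean of 25.4 ± 0.509 TPM (SD, n = 2). Its inhibitor G0s2 was at 23.4 TPM in replicate 2 and 17.5 TPM in replicate 1, with a mean of 20.5 ± 4.21 TPM (SD, n = 2). The RNAs of activator and inhibitor were both well below that of the lipase in each library. The intervals of G0s2, 21.1 to 24.9 TPM in replicate 2 and 15.6 to 18.9 TPM in replicate 1, did not overlap. Those of Pnpla2, 137 to 145 TPM in replicate 2 and 149 to 157 TPM in replicate 1, did not overlap either.

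Per Pnpla2 transcript there were 0.164 G0s2 transcripts in replicate 2 and 0.112 in replicate 1, a ratio 1.46 times as high in replicate 2. The same ratio in the second quantification was 0.17 in replicate 2 and 0.119 in replicate 1, or 1.43 times as high. Abhd5 over Pnpla2 was 0.175 in replicate 2 and 0.165 in replicate 1. Inhibitor over activator was 0.938 in replicate 2 and 0.68 in replicate 1. By TPM summed over all annotated transcripts, Abhd5 thus stood above G0s2 in each library, and the 2 were closer in replicate 2. The credible intervals of these gene levels overlapped in replicate 2, at 23.5 to 28 TPM for Abhd5 and 21.1 to 24.9 TPM for G0s2. Protein-coding transcripts held 43.1% of Abhd5 in replicate 2 and 45.8% in replicate 1, and all of G0s2. Among coding transcripts, G0s2 stood above Abhd5 in both libraries. These are ratios of RNA, and protein amounts were not measured here.

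Lipe was at 14.1 TPM in replicate 2 and 14.8 TPM in replicate 1, with a mean of 14.5 ± 0.495 TPM (SD, n = 2). Lipe over Pnpla2 was 0.0988 in replicate 2 and 0.095 in replicate 1. The RNA of the diacylglycerol lipase was thus below that of the lipase acting before it in both libraries. In the second quantification the order of the libraries in this ratio turned, with 0.094 in replicate 2 and 0.107 in replicate 1. Plin5 over Pnpla2 was 0.373 in replicate 2 and 0.43 in replicate 1.

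For the synthesis genes, Dgat2, an enzyme of the endoplasmic reticulum and droplet surface, was at 121 TPM in replicate 2 and 138 TPM in replicate 1. Dgat1, a structurally unrelated enzyme of the endoplasmic reticulum, was at 6.76 TPM in replicate 2 and 8.75 TPM in replicate 1. The mean was 129.8 ± 12.1 TPM for Dgat2 and 7.75 ± 1.41 TPM for Dgat1 (SD, n = 2), at ranks 434 and 5828. Dgat2 RNA therefore far exceeded Dgat1 RNA, and it made up 94.7% of the pair in replicate 2 and 94.1% in replicate 1. Dgat2 over Dgat1 was 17.9 in replicate 2 and 15.8 in replicate 1, and in the second quantification 14.4 in replicate 2 and 12.9 in replicate 1. The deposited interval of Dgat1 in replicate 2, 7.06 to 9.64 TPM, lay above its TPM, because it belongs to the posterior mean of 8.33 TPM. Dgat1 also had the fewest reads of the group, with 335 expected counts in replicate 2 and 386 in replicate 1.

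Between the libraries the 10 genes lay close together except for G0s2. With TMM-scaled library sizes, the log2 ratio of G0s2 was 0.55 (95% interval 0.36 to 0.74), from 555 expected counts in replicate 2 and 417 in replicate 1. It was 1.46-fold higher in replicate 2, with an adjusted p of 5.4e-08 by exact binomial test, Benjamini-Hochberg adjusted over all tested genes. Of the 12189 genes tested, 5.82% lay at least as far from 0. The central 95% of tested genes spanned -0.66 to 0.56, so G0s2 was inside the range of all genes and near its upper bound.

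The log2 ratio of Plin5 was -0.20 (95% interval -0.27 to -0.14), from 3081 expected counts in replicate 2 and 3902 in replicate 1. It was 0.868-fold, that is lower in replicate 2, with an adjusted p of 6.1e-08 in the exact binomial test. Of the tested genes, 30.4% lay at least as far from 0, so a difference of this size between the libraries was common. The neighbouring gene Plin4, on the same strand with 1797 bases between the annotated spans, had a log2 ratio of 0.07 (95% interval 0.03 to 0.12).

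In all, 3 of the 10 genes were higher in replicate 2 (G0s2, Plin3 and Plin4), against 10.7% of all tested genes, and 2 of 10 were lower (Plin5 and Dgat2), against 15.9%. With 10 genes and small fold changes these counts describe the libraries only. Plin3 was 1.09-fold higher, with an adjusted p of 0.000803, and Plin4 1.05-fold higher, with an adjusted p of 0.007, both by the exact binomial test. Dgat2 was 0.956-fold, lower in replicate 2, with an adjusted p of 0.0169 by the exact binomial test. Scaled to total counts, Plin3 had a log2 ratio of 0.04 and Plin4 one of -0.00 and neither passed, and Dgat2 had 0.03 scaled to spike-ins. G0s2 stayed higher and Plin5 lower under each scaling run.

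No member reached a 2-fold difference, against 0.533% of tested genes at least 2-fold higher in replicate 2 and 1.13% at least 2-fold lower. The median log2 ratio of the 10 was 0.01, beside -0.02 over all tested genes, and 7 of the 10 lay in the middle 50% of tested genes, from -0.14 to 0.10. Pnpla2, the most abundant member by summed TPM, had a log2 ratio of -0.01 (95% interval -0.06 to 0.03) on 7642 expected counts in replicate 2 and 8484 in replicate 1. Its call depended on the scaling: it was lower in replicate 2 with total counts, at -0.09 (adjusted p = 0.00037 by exact binomial test), and higher with spike-ins, at 0.08 (adjusted p = 0.00213). Abhd5 had a log2 ratio of 0.04 (95% interval -0.06 to 0.15), Plin2 one of 0.01 (-0.09 to 0.10), Lipe one of 0.00 (-0.11 to 0.12) and Dgat1 one of -0.07 (-0.28 to 0.15). The interval of Dgat1 was the widest of the 10, since it had the fewest reads.

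**Figure D3:**
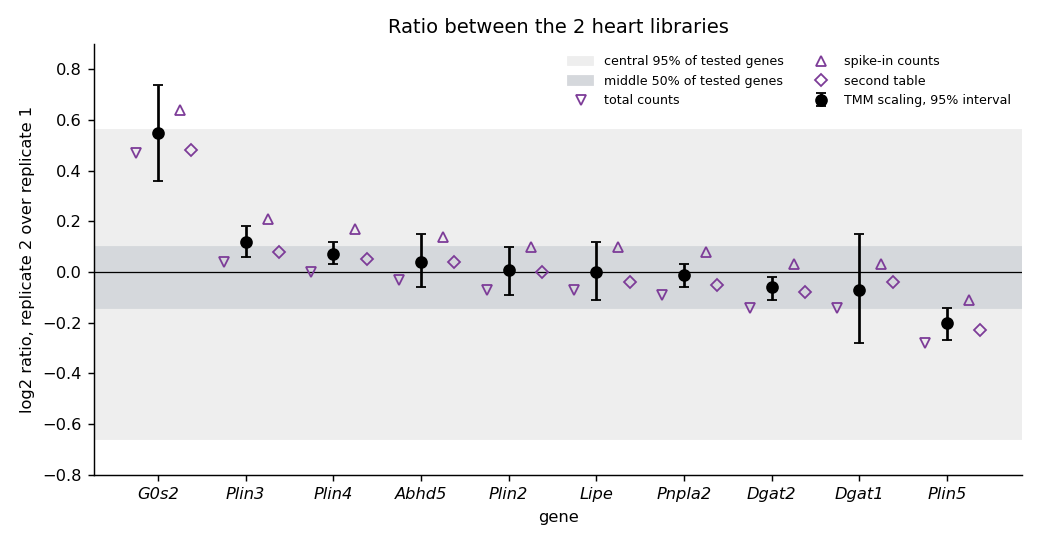
Log2 ratio of replicate 2 over replicate 1 for each of the 10 genes, scaled by TMM, with 95% intervals that cover counting error only. Bands mark the middle 50% and the central 95% of the 12189 tested genes, and G0s2 at 0.55 and Plin5 at -0.20 lie farthest from 0.

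The 10 genes have 56 annotated transcripts, of which 31 were above 0 TPM in both libraries, and the transcript with the highest mean share over the libraries was the same in both quantifications for 10 of 10. G0s2 has 1 transcript, and Dgat2-201 held 99.7% of Dgat2 in replicate 2 and 99.8% in replicate 1. Plin4-202 held at least 99.5% of Plin4 in each library, but 64% ± 27.4 (SD, n = 2) in the second quantification. There the lead turned in 1 library: Plin4-202 held 83.4% of Plin4 in replicate 2 and 44.6% in replicate 1, where Plin4-201 held 55.4%. Plin4-202, of 5756 bases, begins 1 base upstream of Plin4-201, of 5755 bases. The shares of those 2 transcripts of Plin4 were therefore uncertain.

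For Pnpla2 and Abhd5 the leading transcript was annotated as subject to nonsense-mediated decay. Pnpla2-201, of that class, held 61.4% of the TPM of Pnpla2 in replicate 2 and 55.3% in replicate 1, a mean of 58.4% ± 4.3 (SD, n = 2), and 52.6% ± 3.45 (SD, n = 2) in the second quantification. Transcripts annotated as protein-coding held 37.2% of Pnpla2 in replicate 2 and 38.2% in replicate 1. Abhd5-201, of the same class, held 53.1% of Abhd5 in replicate 2 and 50.1% in replicate 1, and protein-coding transcripts held 43.1% in replicate 2 and 45.8% in replicate 1. The class is the annotation's label, and decay itself was not measured here. The gene levels of Pnpla2 and Abhd5 thus count many molecules that the annotation does not label as coding. Protein-coding transcripts held 74.7% of Plin2 in replicate 2 and 76.5% in replicate 1. They held 82.8% of Dgat1 in replicate 2 and 67.8% in replicate 1. Ratios and orders built on the levels of these genes are therefore not ones of coding RNA. Counting coding transcripts only, Pnpla2 was below Dgat2, Abhd5 below G0s2 and Plin2 below Plin5 in both libraries and quantifications. Plin2 was also below Plin4 in both libraries of the first quantification, but only in replicate 2 of the second.

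Plin3 was divided between a long and a short transcript. Plin3-202, of 562 bases and incomplete at its 3′ end, held 50.9% of the TPM of Plin3 in replicate 2 and 51.4% in replicate 1. Its expected counts were 512.53 in replicate 2 and 527.81 in replicate 1. Plin3-201, of 3645 bases, had 3786.47 expected counts in replicate 2 and 3822.19 in replicate 1, which came to 34.8 TPM in replicate 2 and 34.9 TPM in replicate 1. The short transcript was above the long one in TPM, which divides by length, and below it in counts. In the second quantification Plin3-201 was at 36 TPM in replicate 2 and 35.7 TPM in replicate 1, and Plin3-202 at 62.9 TPM in replicate 2 and 73.5 TPM in replicate 1. The long transcript of Plin3 was thus below the summed level of Plin5 in both libraries, and the place of Plin3 at the top of the coat genes rested on the short one.

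Plin5 had 2 transcripts of note, Plin5-201, which begins at base 56117596, and Plin5-202, which begins at base 56117298 of chromosome 17. On the minus strand both begin directly after the 3′ end of a printed Plin5 window. Plin5-201 was at 33.8 TPM in replicate 2 and 46.6 TPM in replicate 1, while Plin5-202 was at 19.4 TPM in replicate 2 and 20.4 TPM in replicate 1. Plin5-201 held 63.5% of Plin5 in replicate 2 and 69.5% in replicate 1. In the second quantification Plin5-202 was lower, at 5.79 TPM in replicate 2 and 9.54 TPM in replicate 1, and Plin5-201 held 87.4% ± 2.39 (SD, n = 2). Plin5-201 led in each library and quantification, and the share of the downstream start depended on the quantification.

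Lipe was led by Lipe-208, at 8.57 TPM in replicate 2 and 7.62 TPM in replicate 1, which was 60.7% of Lipe in replicate 2 and 51.4% in replicate 1. Lipe-202, which begins at base 25390106 of chromosome 7, was at 3.77 TPM in replicate 2 and 5.85 TPM in replicate 1. Lipe-201, which begins at base 25396379, upstream of the other 2 on the minus strand, was at 0.47 TPM in replicate 2 and 0.85 TPM in replicate 1, the lowest of the 3. Dgat1-201 held 82.8% of Dgat1 in replicate 2 and 67.8% in replicate 1, and 55.6% ± 7.82 (SD, n = 2) in the second quantification. Plin2-201 held 50.1% of Plin2 in replicate 2 and 49.3% in replicate 1.

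**Figure D4:**
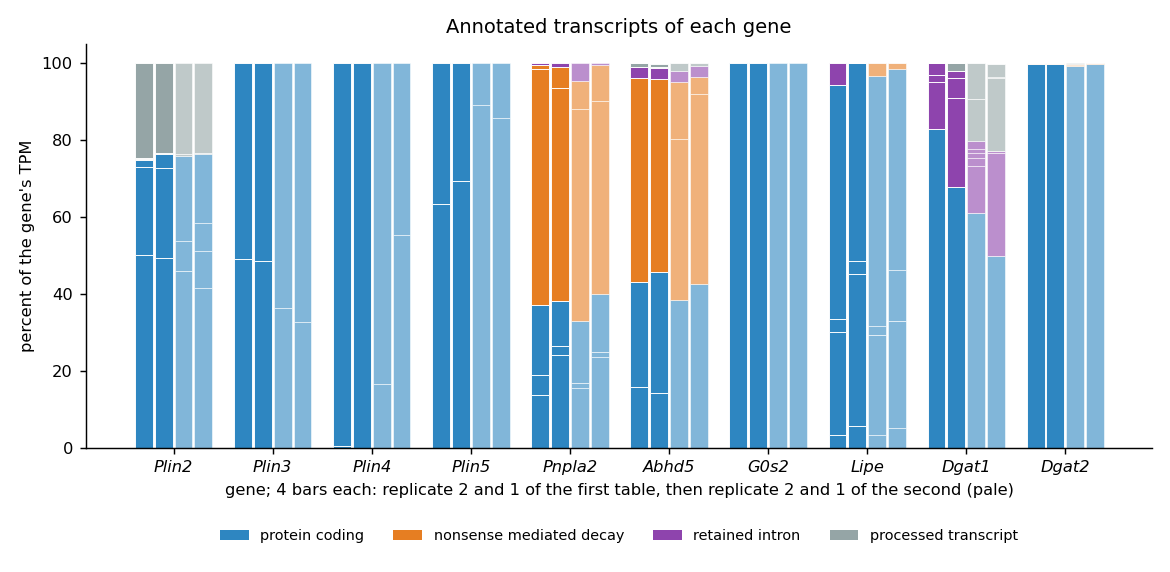
Share of each gene's TPM held by its transcripts, in percent, as 4 bars a gene: replicate 2 and replicate 1 of the first table, then replicate 2 and replicate 1 of the second (pale), with 1 segment a transcript and colour for its annotated class. Pnpla2 and Abhd5 hold most of their TPM in the class subject to nonsense-mediated decay in all 4 bars, and Plin4 is divided in the second table only.

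Of 32 other droplet and triacylglycerol genes in the 3 lists, 26 had a mean of at least 1 TPM and were tested, and 5 were higher, 6 lower and 15 did not pass in replicate 2 against replicate 1. Their median log2 ratio was -0.03, beside -0.02 over all tested genes, of which 10.7% were higher and 15.9% lower. Of 16 further droplet proteins, 13 were tested, with 1 higher, 4 lower, 8 not passing and a median of -0.03. Fitm2, which helps droplets bud from the endoplasmic reticulum, was the highest in the first quantification, at 73.1 TPM in replicate 2 and 81.9 TPM in replicate 1. In the second, Rab18 was above Fitm2, at 98.2 against 76 TPM in replicate 2 and 114 against 83.8 TPM in replicate 1. Fitm2 was not called, but was called lower with total counts and higher with spike-ins. Fitm1, the muscle relative of Fitm2, was at 55.7 TPM in replicate 2 and 71 TPM in replicate 1, a log2 ratio of -0.22 that passed. The droplet GTPase Rab18 was at 56.7 TPM in replicate 2 and 65 TPM in replicate 1 and Aup1, a droplet protein of ubiquitin handling, at 21.9 TPM in replicate 2 and 30.8 TPM in replicate 1, and neither passed. Cideb and Pnpla3 averaged under 1 TPM, and Hsd17b13 had 0 expected counts in the gene tables of both libraries, which allows up to 3 counts. In the second quantification Hsd17b13 was at 0.0236 TPM in replicate 2 and 0.0225 TPM in replicate 1.

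Plin1 and Cidec, coat and fusion proteins of adipocyte droplets, were the 2 droplet genes past 2-fold, both lower in replicate 2. Plin1 was at 1.92 TPM in replicate 2 and 3.79 TPM in replicate 1, a log2 ratio of -1.02 with an adjusted p of 1.3e-08 in the exact binomial test. Cidec was at 1.11 TPM in replicate 2 and 2.71 TPM in replicate 1, a log2 ratio of -1.54 with an adjusted p of 1.9e-08 in the exact binomial test. Both genes also stand in the list of white adipocyte markers. Of its 10 genes, 7 were tested and all 7 were at least 2-fold lower in replicate 2, against 1.13% of all tested genes. Their median log2 ratio was -2.11, while Lep, Acvr1c and Slc7a10 averaged under 1 TPM. The 10 summed to 15.2 TPM in replicate 2 and 74.3 TPM in replicate 1, and none was at 0 in both libraries. Adipoq, the adipocyte hormone adiponectin, was at 1.15 TPM in replicate 2 and 5.98 TPM in replicate 1. Car3 had a log2 ratio of -2.02, the complement factor Cfd one of -2.76 and the fatty acid synthase Fasn one of -2.33. Retn had 1 count in replicate 2 and 49 in replicate 1, a log2 ratio of -4.00 with a 95% interval of -10.81 to -2.93. The log2 ratios of the 10 members of the group ran from -0.20 to 0.55, with a median of 0.01. The part of adipocyte RNA in the values of these members was not tested.

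Among 12 genes of triacylglycerol synthesis before the DGAT step, 9 were tested, with 2 higher, 2 lower and 5 not passing. The median was -0.05, and the shares over all tested genes were 10.7% higher and 15.9% lower. Agpat3, an acyltransferase making phosphatidic acid, was at 75.8 TPM in replicate 2 and 95.5 TPM in replicate 1 and did not pass, though it was called lower with total counts, size factors or the second table. Gpam, the mitochondrial acyltransferase that opens the pathway, was at 67.5 TPM in replicate 2 and 59.2 TPM in replicate 1, a log2 ratio of 0.28 that passed. Lpin1, a phosphatidic acid phosphatase, was at 49.7 TPM in replicate 2 and 64.8 TPM in replicate 1, a log2 ratio of -0.21 that passed. Agpat1 was at 24.7 TPM in replicate 2 and 27.4 TPM in replicate 1. The monoacylglycerol route was scarcely present, with Mogat1 under 1 TPM and Mogat2, the neighbour of Dgat2 on chromosome 7, at 0 counts in both libraries, and Gpat2 was also under 1 TPM.

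Of 4 further lipases, 2 were higher in replicate 2 (10.7% of all tested genes) and none was lower (15.9%). The median log2 ratio was 0.10. Both calls were lost with total counts, at log2 ratios of 0.04 for Ces1d and 0.06 for Mgll. Ces1d, a carboxylesterase with triacylglycerol lipase activity, was at 92.7 TPM in replicate 2 and 92.3 TPM in replicate 1, a log2 ratio of 0.12 that passed. Mgll, which completes lipolysis at monoacylglycerol, was at 38.3 TPM in replicate 2 and 38.9 TPM in replicate 1, a log2 ratio of 0.14 that passed. Lipa, the lysosomal acid lipase, was at 8.83 TPM in replicate 2 and 8.94 TPM in replicate 1, and Abhd6 at 4.31 TPM in replicate 2 and 4.43 TPM in replicate 1, and neither passed. By TPM summed over all annotated transcripts, the lipolysis enzymes stood in the order Pnpla2, Ces1d, Mgll and Lipe in both libraries. Protein-coding transcripts held 37.2% of Pnpla2 in replicate 2 and 38.2% in replicate 1. Coding shares of Ces1d and Mgll were not computed, so the order is not one of coding RNA.

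**Figure D5:**
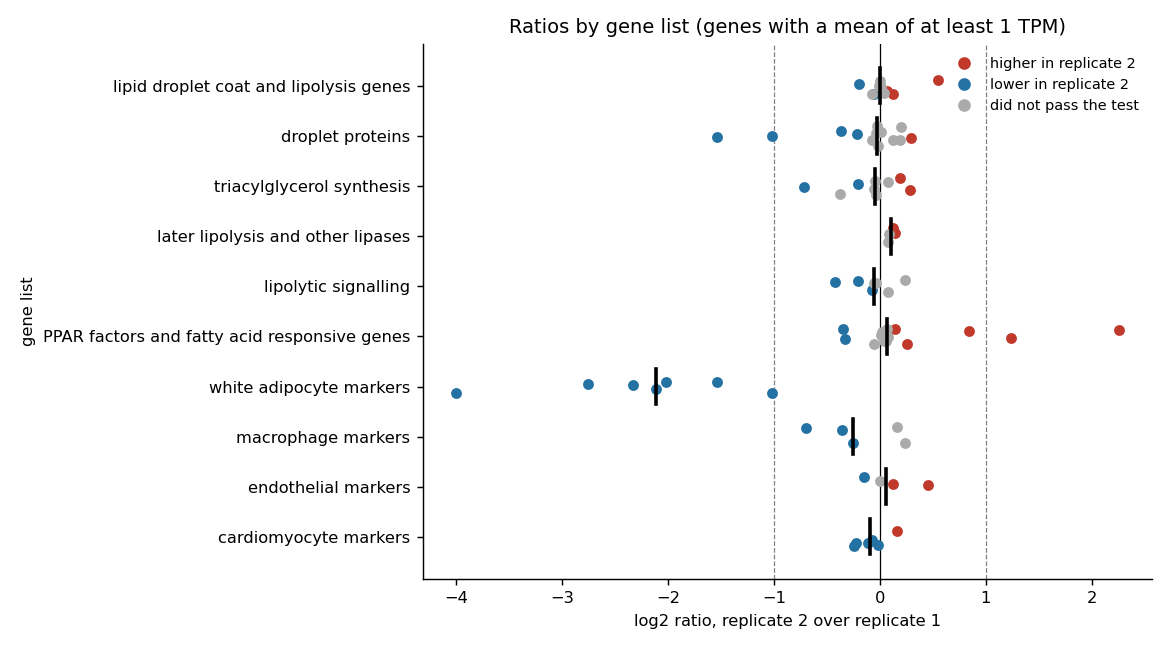
Log2 ratio of replicate 2 over replicate 1 for the tested genes of the 10 members and of 9 lists, coloured by the exact binomial test. Thick bars are list medians and dashed lines mark 2-fold. White adipocyte markers lie below -1 and the 2 droplet genes past 2-fold, Plin1 and Cidec, are among them.

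A list of PPAR factors and of genes that respond to fatty acids was included for comparison, since several coat genes are known PPAR targets. Of 14, 5 were higher in replicate 2, 2 lower and 7 did not pass, and the median log2 ratio was 0.06. Of all tested genes, 10.7% were higher, 15.9% lower and 0.533% at least 2-fold higher. Angptl4, a secreted inhibitor of lipoprotein lipase, and Ucp3, a mitochondrial carrier, were past 2-fold, with log2 ratios of 2.26 and 1.24. Pdk4, the kinase that restrains glucose oxidation, had a log2 ratio of 0.84, the fatty acid transporter Cd36 one of 0.26 and the carnitine transferase Cpt1b one of 0.14, and these 3 passed. The 2 lower genes, named after their values were seen, were the factor Ppara, with a log2 ratio of -0.35, and its coactivator Ppargc1a, with one of -0.33. Acadl was at 444 TPM in replicate 2 and 458 TPM in replicate 1 and did not pass. Beside these log2 ratios, G0s2 had 0.55, Plin3 0.12, Plin4 0.07, Plin2 0.01 and Plin5 -0.20, so the coat genes lay closer to 0 than Angptl4, Ucp3 and Pdk4 and differed in direction among themselves.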

How the data were processed

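Heart RNA was measured in 2 libraries of 1 group. The deposited gene tables hold expected counts, TPM, FPKM and bounds of a credible interval whose level is not given in the sources used here. The deposited first transcript tables hold expected counts and TPM made from transcriptome alignments, and the second ones estimated counts and TPM made from the reads, per the deposited file list. The deposited file list gives mm10 and GENCODE M21. The quantification tools are not given in the sources used here. The second tables were summed per gene.

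The 10 genes and all lists were chosen with earlier results of these data known. Expected counts were rounded. Genes averaging 1 TPM or more were compared by a two-sided exact conditional binomial test with TMM library sizes (edgeR 4.0.16, R 4.3.3), adjusted by Benjamini-Hochberg over all tested genes at 0.05. The test compares the libraries and not conditions. A quasi-likelihood test could not be fitted, since no residual degrees of freedom remain. Log2 ratios used a prior count of 2. Intervals of 95% and the floor of 3 counts cover counting error only, and reads without molecular identifiers are not independent molecules. The test was checked on simulated counts that held counting error only, so the check does not cover other differences between libraries. Alternatives were total counts, spike-ins, DESeq2 1.42.0 size factors, other filters, a prior count of 0.5, no mitochondrial genes and the second tables. Replicate 2 had 37447839.8 counts, 0.444% of them from spike-ins, and replicate 1 had 39053830.0, with 0.5%. Figures used matplotlib 3.10.9 with Python 3.11.15.

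Named genes were the 10 members, the 4 most abundant of each of the 5 gene lists, their genes past 2-fold or under 1 TPM, and overlapping or nearest neighbours. Cell type marker lists are given by sums and counts. The markers named singly, Adrb1, Cidea, Ppara, Ppargc1a, the promoters printed and the transcripts other than leading ones were picked with their values in view.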

Additional observations from a re-analysis of the deposited data

How the results depend on the processing

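No paired analysis was possible because both libraries form 1 group. Leaving out either library leaves the level of the other and no ratio. Of 60 alternative ratios of the members, 49 kept their call and did not turn sign, where a ratio that rounds to 0.00 counts as having no sign. The prior count of 0.5 enters the ratio and not the test, so calls under it could not change. Without mitochondrial genes the libraries' sizes, as a log2 ratio, still differed by -0.14. All ratios under both of these settings are among the 49, which therefore overstates the stability. Lipe, at 0.00, ran from -0.07 to 0.10 and was never called. The cause of the other changes was not tested beyond the size of the scaling. The libraries' sizes, as a log2 ratio, differed by -0.14 with TMM, -0.06 with total counts and -0.23 with spike-ins. With total counts, 1 member was higher and 3 lower, Pnpla2 among them at -0.09, with log2 ratios of -0.07 for Plin2 and -0.03 for Abhd5, and 1 pathway gene was higher and 10 lower. With spike-ins, 5 members were higher and 1 lower, with log2 ratios of 0.08 for Pnpla2, 0.03 for Dgat1 and 0.03 for Dgat2, and 10 pathway genes were higher and 1 was past 2-fold. With size factors Plin2 was at -0.01. At a mean of at least 5 TPM, 3 pathway genes were lower and 0 past 2-fold. In the second tables the members held 0.139% of nuclear protein-coding TPM, against 0.15%. Of all tested genes 1302 were higher and 1943 lower, or 700 and 3473 with total counts and 2884 and 990 with spike-ins, so directions of small ratios depend on the scaling. G0s2 was at 0.47 with total counts and 0.64 with spike-ins, and Plin5 at -0.28 and -0.11. Depth limits Dgat1 most, with 335 counts in replicate 2 and 386 in replicate 1.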

Other observations

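Genes that signal to lipolysis were also measured. Of 8, 7 were tested, with 0 higher in replicate 2, 3 lower and 4 not passing the exact binomial test. Their median log2 ratio was -0.06, and of all tested genes 10.7% were higher and 15.9% lower. Prkar1a, a regulatory subunit of protein kinase A, was at 147 TPM in replicate 2 and 186 TPM in replicate 1, a log2 ratio of -0.21 that passed. Prkaca, the catalytic subunit that phosphorylates perilipins and Lipe, was at 122 TPM in replicate 2 and 139.9 TPM in replicate 1, a log2 ratio of -0.07 that passed and was 0.02 with spike-in scaling. Prkar2a was at 29.1 TPM in replicate 2 and 30.7 TPM in replicate 1, and Prkacb at 23.8 TPM in replicate 2 and 26.6 TPM in replicate 1. Adrb1, the main cardiac beta-adrenergic receptor, chosen here after its values were seen, was at 6.25 TPM in replicate 2 and 6.37 TPM in replicate 1. Adrb3, the receptor of adipocytes, averaged under 1 TPM.

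Cidea, a droplet fusion protein of brown adipocytes, also chosen after its values were seen, was at 17.3 TPM in replicate 2 and 16.5 TPM in replicate 1 and did not pass. The other brown adipocyte markers, Ucp1, Elovl3 and Dio2, averaged under 1 TPM, and the 4 summed to 18.1 TPM in replicate 2 and 17.2 TPM in replicate 1. For the marker lists that follow, the shares over all tested genes were 10.7% higher and 15.9% lower in replicate 2. Macrophage markers summed to 32.4 TPM in replicate 2 and 47.2 TPM in replicate 1, with 3 of 5 tested lower. Endothelial markers summed to 128 TPM in replicate 2 and 129.7 TPM in replicate 1, with 2 of 4 higher and 1 lower. Erythroid markers summed to 4837 TPM in replicate 2 and 7070.3 TPM in replicate 1, with 3 of 3 lower, and cardiomyocyte markers had 1 of 6 higher and 5 lower. Acta1, the only skeletal muscle marker tested, had a log2 ratio of 0.62. The part of these cells in the values of the 10 genes was not tested.

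Hsf1, which encodes the heat shock factor and lies close to Dgat1 on the opposite strand, was at 12.8 TPM in replicate 2 and 13.6 TPM in replicate 1, above Dgat1 in both libraries. Rplp2, a neighbour of Pnpla2, was at 301 TPM in replicate 2 and 402 TPM in replicate 1, a log2 ratio of -0.30, beside -0.01 for Pnpla2.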
